A study of Miniopterus schreibersii with 14 samples.

Results

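The components comp10444_c0, comp10191_c0, comp1195_c0 and comp3354_c0 are 4 of the 64618 assembled components measured in limbs of the bent-wing bat Miniopterus schreibersii. They were chosen by identifier because each scored higher in hindlimb than in forelimb in all 6 matched pairs of limb parts, from the bud to the fetal skeleton. Their fetal levels and their low level in the wing web were also known when they were chosen. Those patterns are given below as values without a test, and tests are kept to contrasts that the choice did not use.

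Messenger RNA was sequenced from 14 pieces of the autopod, the hand or foot end of the limb, with 1 library per piece. Forelimb and hindlimb buds of stage S14 were each cut into anterior, middle and posterior parts. Stages S15-17 gave forelimb digit I, interdigital tissue I-II, forelimb digits II-V with their interdigital tissue as a separate piece, and from the foot the interdigital tissue and digits I-V. The last pieces were metacarpals II-V and metatarsals I-V of the fetal stage. The digit, interdigital and metapodial pairs set forelimb II-V against hindlimb I-V, so only their hindlimb side includes parts of digit I. The labels name no strain, treatment or genotype, and the sources used here do not give the number of embryos behind a library. Since no piece was sequenced a second time, variation within a piece is unknown.

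In mammals the identity of forelimb and hindlimb is set early in the bud by transcription factors that are expressed in one limb and not the other. Interdigital tissue usually regresses by cell death, which frees the digits, whereas in bats the tissue between the long wing digits is kept as the flight membrane. The thumb and the foot of a bat stay small and free, and the metacarpals of the wing digits grow far longer than the metatarsals.

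The deposited table names components by assembly number. Of its identifiers, 0 matched the 22775 genes of the RefSeq table of this species (assembly mMinSch1.hap1.2), so the 4 components carry no gene name, length or sequence here. The tissue labels were for the same reason not checked against marker genes. Lengths are unknown, so the level of a component, or a ratio of 2 components, is compared between libraries, and no component is called more abundant than another.

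Levels are scores, which are normalized counts that the authors rounded to whole numbers. In each library the low scores fell on rounded multiples of 1 step, the score of 1 read or read pair, which lay between 1.29 and 2.23. Dividing by the step gave 4550754 to 7648427 reads per library. Intervals are exact 95% intervals from these reads and cover counting error only, not differences between embryos or dissections. All 4 components passed the filter used for tests, which required a score of 10 or more on average across the table and kept 20429 components. A lower score can reflect fewer cells of a type or less RNA per cell, which cannot be told apart in such bulk samples.

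Each of the 4 components was read in every embryonic library. Components comp10444_c0, comp1195_c0 and comp3354_c0 had their highest scores in the fetal metapodials. In comp10191_c0 the forelimb bud scored lowest and foot interdigital tissue highest, at 331. For comp10444_c0 the anterior, middle and posterior forelimb bud scored 125, 108 and 82, and the same parts of the hindlimb bud 215, 181 and 226. At S15-17 it scored 107 in digit I, 196 in interdigital tissue I-II, 111 in digits II-V, 69 in interdigital tissue II-V, 255 in hindlimb digits and 299 in hindlimb interdigital tissue. Its fetal scores were 1361 in metacarpals and 4331 in metatarsals. The highest values were thus fetal, and the lowest was in the wing web.

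Component comp10191_c0 scored 13, 16 and 11 in anterior, middle and posterior forelimb bud, on 6, 9 and 7 reads, and 91, 77 and 50 in the hindlimb bud. It had 47 in digit I, 77 in interdigital tissue I-II, 96 in digits II-V, 64 in interdigital tissue II-V, 221 in hindlimb digits and 331 in hindlimb interdigital tissue. In metacarpals it scored 146 and in metatarsals 256. Its lowest values were therefore the forelimb buds, and its highest was foot interdigital tissue and not a fetal library.

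Component comp1195_c0 scored 65, 73 and 47 in anterior, middle and posterior forelimb bud and 386, 273 and 282 in hindlimb bud. At S15-17 the scores were 128 in digit I, 238 in interdigital tissue I-II, 87 in digits II-V, 21 in interdigital tissue II-V, 180 in hindlimb digits and 332 in hindlimb interdigital tissue. Metacarpals scored 4299 and metatarsals 9805. The wing web, with 13 reads, was the lowest library and the metatarsals the highest.

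Component comp3354_c0 ran in parallel, with 56, 66 and 51 in forelimb bud and 383, 267 and 282 in hindlimb bud, from anterior to posterior. It scored 83 in digit I, 221 in interdigital tissue I-II, 77 in digits II-V, 28 in interdigital tissue II-V, 192 in hindlimb digits and 335 in hindlimb interdigital tissue. The metacarpals had 2473 and the metatarsals 6379. Its 14 libraries stood in the same order as those of comp1195_c0 from highest to lowest.

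**Figure D1:**
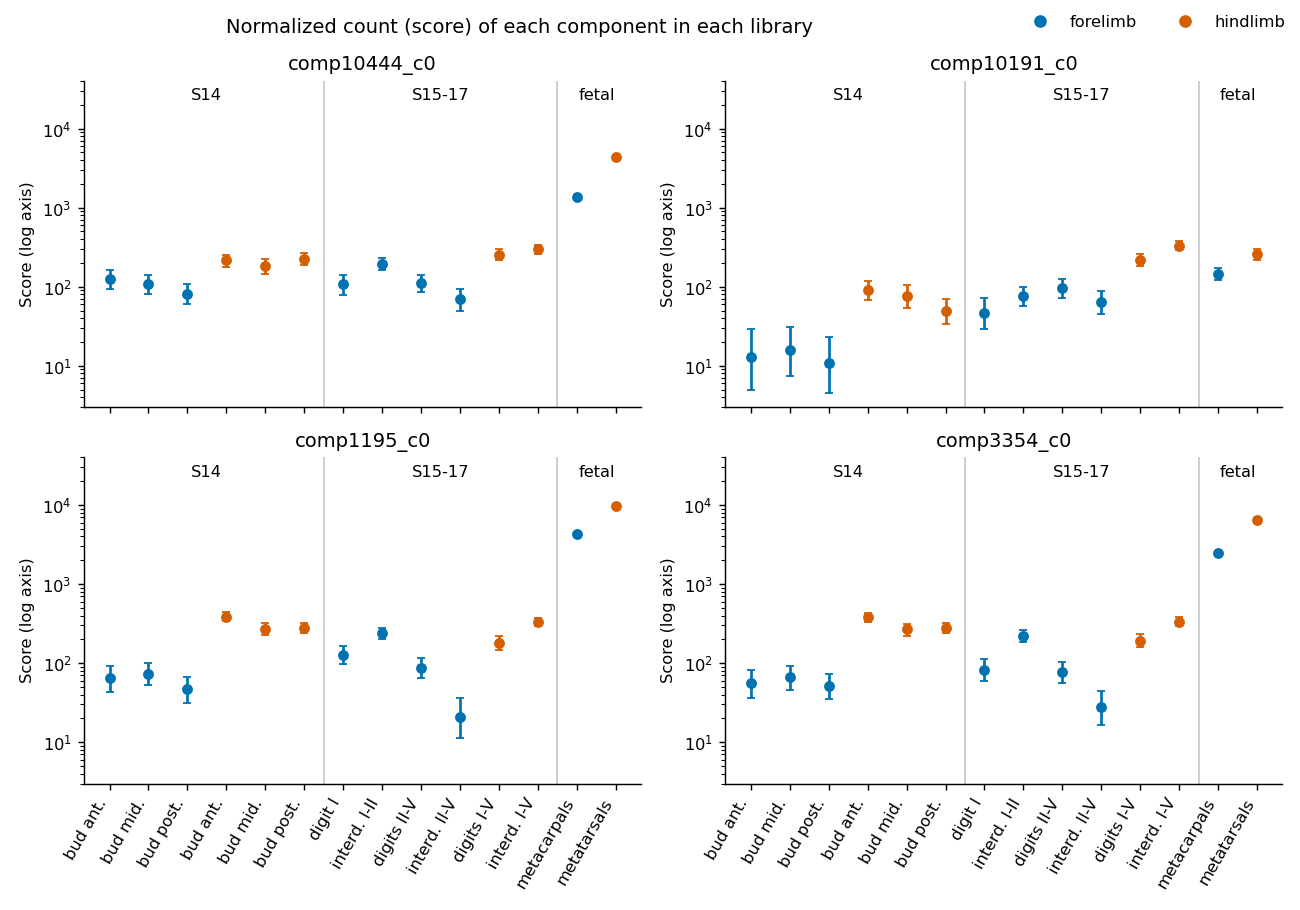
Score of each component (vertical log axis) in the 14 libraries (horizontal axis), with exact 95% counting intervals as bars; blue is forelimb and orange hindlimb. In comp10444_c0, comp1195_c0 and comp3354_c0 the fetal libraries stand above all embryonic ones, while in comp10191_c0 the highest score is 331 in foot interdigital tissue.

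Many neighbours in these orders were not separated by counting error. Of the 13 neighbouring steps from the highest to the lowest library, the interval of the ratio excluded 1 in 3 for comp10444_c0, 4 for comp10191_c0, 5 for comp1195_c0 and 3 for comp3354_c0. For comp10444_c0, comp1195_c0 and comp3354_c0, the metatarsals stood apart from the metacarpals and these from the highest embryonic library. In comp10191_c0 the steps that stood apart were foot interdigital tissue over metatarsals, hindlimb digits over metacarpals, metacarpals over digits II-V, and digit I over the middle forelimb bud.

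The hindlimb excess was graded, since each component was also read in every forelimb library, and it was of different size in different parts. By the choice itself, 4 of 4 components were higher in hindlimb in all 6 pairs; 482 of the kept components, or 2.36%, were so. Among those 482, the mean log2 difference placed comp3354_c0 at rank 14, comp1195_c0 at 16, comp10191_c0 at 18 and comp10444_c0 at 38. The smallest of the 6 log2 differences was 0.74 for comp10444_c0, 0.81 for comp10191_c0, 1.04 for comp1195_c0 and 1.31 for comp3354_c0, against a median of 0.10 over the 482. The component nearest to 0, the limit that the choice set, had a smallest difference of 0.0017. These ranks and differences rest on values that the choice used, so nothing is read from them.

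In comp10444_c0 the hindlimb to forelimb ratio was smallest in the anterior and middle bud and largest between the digits. It was 1.72 (95% interval 1.25 to 2.40) in the anterior, 1.68 (1.19 to 2.38) in the middle and 2.76 (1.99 to 3.87) in the posterior bud. Digits gave 2.29 (1.70 to 3.12), interdigital tissue 4.32 (3.09 to 6.16) and metapodials 3.18 (2.96 to 3.42). The interdigital interval includes the metapodial ratio and the anterior bud interval the digit ratio, so this order was not resolved. The mean log2 difference over pairs was 1.32 ± 0.53 (SD, n = 6 pairs), with 0.99 ± 0.40 in the S14 pairs and 1.65 ± 0.45 in the later pairs (SD, n = 3 pairs each).

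Component comp10191_c0 had a bud ratio of 6.81 (2.94 to 19.3) anterior, 4.69 (2.22 to 11.0) middle and 4.41 (1.91 to 11.9) posterior. The ratio was 2.31 (1.67 to 3.23) in digits, 5.13 (3.65 to 7.40) in interdigital tissue and 1.76 (1.37 to 2.26) in metapodials. The metapodial pair had its smallest log2 difference and the anterior bud, on 6 forelimb reads, its largest. The digit interval includes the metapodial ratio, and the anterior bud interval the interdigital ratio, so neither extreme was resolved. Over the pairs the mean was 1.89 ± 0.73 (SD, n = 6), and it was 2.33 ± 0.34 at S14 and 1.45 ± 0.81 later (SD, n = 3 pairs each).

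For comp1195_c0 the ratio was 5.96 (4.05 to 9.10), 3.73 (2.60 to 5.46) and 6.05 (4.07 to 9.29) in anterior, middle and posterior bud. It was 2.07 (1.46 to 2.96) in digits, 15.5 (8.88 to 29.5) in interdigital tissue and 2.28 (2.19 to 2.38) in metapodials. Component comp3354_c0 had 6.86 (4.53 to 10.8), 4.05 (2.78 to 6.04) and 5.48 (3.74 to 8.26) in the buds, in the same order. Its later ratios were 2.51 (1.75 to 3.64) in digits, 11.9 (7.30 to 20.8) in interdigital tissue and 2.58 (2.44 to 2.73) in metapodials. Both thus had their smallest log2 difference in the digits and their largest in the interdigital pair, where the forelimb value is the wing web. In each, the digit interval includes the metapodial ratio, so which of these pairs was smallest was not resolved. The mean log2 difference was 2.19 ± 1.07 for comp1195_c0 and 2.23 ± 0.86 for comp3354_c0 (SD, n = 6 pairs).

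**Figure D2:**
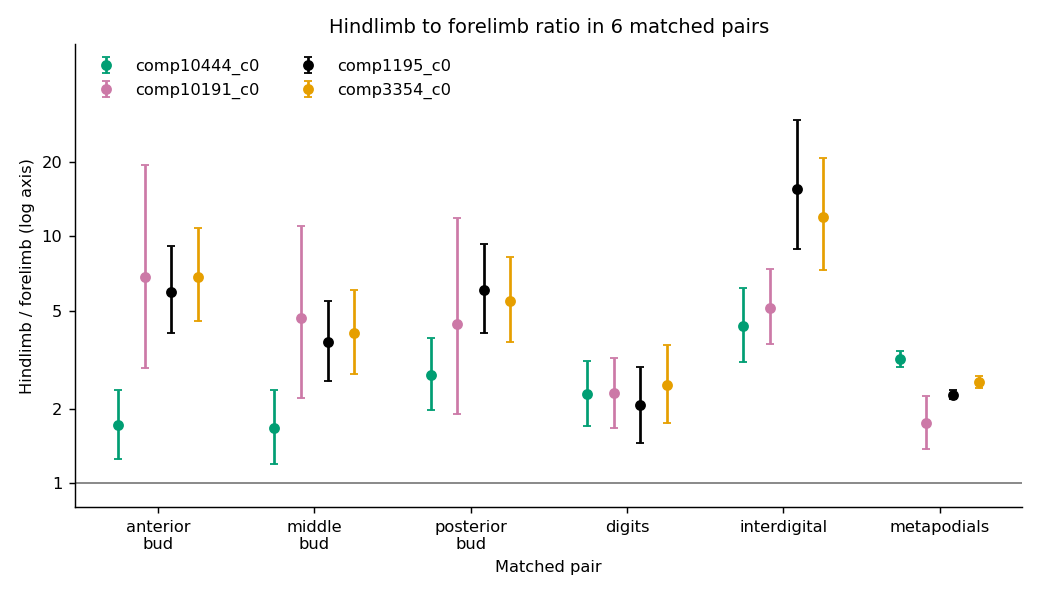
Hindlimb to forelimb ratio (vertical log axis) of the 4 components in the 6 matched pairs, with exact 95% counting intervals. Every interval lies above 1, which the choice of components favours, and the interdigital ratio reaches 15.5 in comp1195_c0.

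Among embryonic libraries, the 5 hindlimb ones lay above all 5 matched forelimb ones in comp10444_c0 (181 to 299 against 69 to 125), comp1195_c0 (180 to 386 against 21 to 87) and comp3354_c0 (192 to 383 against 28 to 77). That held for 0.382% of kept components, and nothing is read from it, since the choice used these values. In comp10191_c0 the limbs overlapped, at 50 to 331 in hindlimb and 11 to 96 in forelimb: the S14 hindlimb bud scored 50 to 91 and the S15-17 forelimb libraries of the pairs 64 and 96.

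The thumb side, which belongs to the forelimb but to no pair, did not keep to one side. Interdigital tissue I-II scored 196, 238 and 221 for comp10444_c0, comp1195_c0 and comp3354_c0, inside the embryonic hindlimb range of each and above all 5 matched forelimb libraries. For comp10191_c0 it scored 77, within both ranges. Digit I lay within the forelimb range for comp10444_c0 (107) and comp10191_c0 (47), and between the ranges for comp1195_c0 (128) and comp3354_c0 (83).

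From S14 to S15-17, comp10191_c0 rose in both limbs, while the other components did not pass the test of this step. In the forelimb its mean score went from 13.3 ± 2.52 (SD, n = 3 bud parts) to 71.0 ± 20.7 (SD, n = 4 parts), and in the hindlimb from 72.7 ± 20.8 (SD, n = 3) to 276 ± 77.8 (SD, n = 2). Within each limb all later libraries lay above all bud libraries. The share of kept components with such a gap was not counted, so nothing is read from it. The log2 change was 2.30 in forelimb and 1.92 in hindlimb. The difference between these 2 changes was not tested, since the choice used the limb contrast.

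In limma with limb as a covariate, which takes the parts of a stage as its samples, comp10191_c0 changed by 2.14 on the log2(score + 1) scale (SE 0.22, adjusted p = 1.5e-05). The adjusted p is Benjamini-Hochberg over all 20429 components. It was 1 of the 4 called, at an adjusted p under 0.05, while 17.9% of all components were called higher and 21.5% lower, 39.4% together. The split of 3665 higher and 4384 lower became 4624 and 3299 with upper-quartile scaling. Over 20 alternative fits the change of comp10191_c0 ran from 1.78 to 2.27 and limma's adjusted p from 2.4e-06 to 0.028. Parts dissected at the 2 stages differ in kind, so stage and dissection cannot be told apart.

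The other 3 components had small average changes between these stages. For comp10444_c0 the limma difference was 0.24 (SE 0.21, adjusted p = 0.39), for comp1195_c0 0.16 (SE 0.45, adjusted p = 0.80) and for comp3354_c0 0.16 (SE 0.38, adjusted p = 0.76). By limb, the log2 values of comp10444_c0 differed by 0.12 in forelimb, where the ranges overlapped, and by 0.42 in hindlimb. Its hindlimb scores were 181 to 226 in S14 (n = 3) and 255 to 299 in S15-17 (n = 2). The share of kept components with such a gap was not counted, and with so few libraries nothing is read from it. The log2 values of comp1195_c0 differed by 0.51 in forelimb and -0.34 in hindlimb, and those of comp3354_c0 by 0.47 and -0.27. Single forelimb libraries moved the limma difference in either direction: without interdigital tissue I-II it was -0.13 for both, and without the wing web 0.50 for comp1195_c0 and 0.41 for comp3354_c0. Forelimb parts of S15-17 were spread widely, from 21 to 238 in comp1195_c0 and from 28 to 221 in comp3354_c0, which leaves a wide error around the average.

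In the wing web, the tissue between forelimb digits II-V, comp1195_c0, comp3354_c0 and comp10444_c0 scored lower than in both other interdigital libraries, and comp10191_c0 lower than in the foot. For comp1195_c0 interdigital tissue I-II was 11.1-fold (6.32 to 21.3) and foot interdigital tissue 15.5-fold (8.88 to 29.5) above the web. The ratios were 7.87 (4.76 to 13.9) and 11.9 (7.30 to 20.8) for comp3354_c0, and 2.83 (1.99 to 4.11) and 4.32 (3.09 to 6.16) for comp10444_c0. In these 3 the thumb side thus stood nearer to the foot than to the web, with foot to thumb-side ratios of 1.39 (1.14 to 1.71), 1.52 (1.23 to 1.87) and 1.52 (1.23 to 1.90) in the same order.

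In comp10191_c0 the web scored 64 and interdigital tissue I-II 77, a ratio of 1.19 whose interval, 0.771 to 1.85, includes 1. Both forelimb libraries lay below the foot, which was 5.13-fold (3.65 to 7.40) above the web and 4.32-fold (3.20 to 5.93) above interdigital tissue I-II. The low web relative to the thumb side was therefore not resolved at this depth for comp10191_c0. A web score of less than 1/2 of both other interdigital libraries was met by 3 of the 4 components and by 2.99% of all kept components. Since the low web was known when the components were chosen, nothing is read from that count.

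Against the digits of its own region, the web also differed in direction from the other interdigital tissues. All 4 components scored higher between the digits than in the digits on the thumb side and in the foot, and lower in the wing. This pattern of signs, counted after seeing the data, was found in 9.77% of kept components; the web value in it was known to the choice. In comp1195_c0 the interdigital to digit ratio was 1.86 (1.38 to 2.54) on the thumb side, 0.247 (0.123 to 0.461) in the wing and 1.85 (1.46 to 2.34) in the foot. Component comp3354_c0 had 2.65 (1.86 to 3.87), 0.367 (0.197 to 0.655) and 1.75 (1.39 to 2.20).

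For comp10444_c0 the same ratios were 1.84 (1.32 to 2.60), 0.623 (0.412 to 0.934) and 1.17 (0.948 to 1.45), so that the foot difference lay within counting error. For comp10191_c0 they were 1.63 (0.974 to 2.81), 0.673 (0.435 to 1.03) and 1.50 (1.20 to 1.87), and the foot alone had an interval that excluded 1. Among the forelimb digits, digit I stood at 0.960 (0.649 to 1.41) of digits II-V in comp10444_c0, 1.47 (0.996 to 2.19) in comp1195_c0 and 1.09 (0.689 to 1.71) in comp3354_c0, all with 1 in the interval. In comp10191_c0 it stood at 0.491 (0.285 to 0.819).

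**Figure D3:**
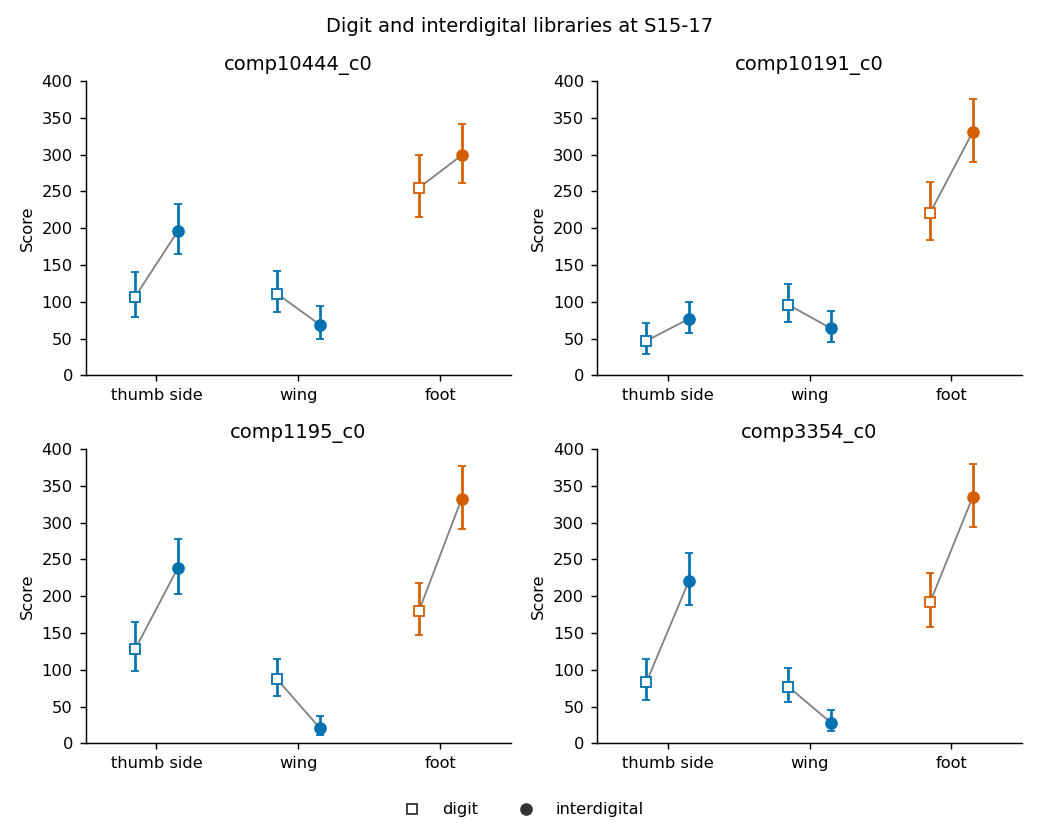
Scores of the digit (open squares) and interdigital (filled circles) libraries at S15-17 on the thumb side, in the wing and in the foot, with exact 95% counting intervals; blue is forelimb and orange hindlimb. In each panel the line rises on the thumb side and in the foot and falls in the wing, to 21 in comp1195_c0 and 28 in comp3354_c0.

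The fetal rise, which was known when the components were chosen, was small in comp10191_c0 and steep in the other 3 components. Metacarpals exceeded forelimb digits II-V by 49.4-fold (37.4 to 66.7) in comp1195_c0, 32.3-fold (24.0 to 44.6) in comp3354_c0 and 12.2-fold (9.50 to 16.0) in comp10444_c0. Metatarsals exceeded hindlimb digits by 54.5-fold (44.9 to 66.8), 33.3-fold (27.6 to 40.5) and 17.0-fold (14.4 to 20.1) in the same order. In comp10191_c0 the ratio was 1.52 (1.09 to 2.14) in the forelimb and 1.16 (0.911 to 1.47) in the hindlimb. The forelimb and hindlimb intervals of each steep riser overlapped, and in comp10191_c0 the hindlimb interval included 1.

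These steep rises were large but not at the extreme of the table. On the log2(score + 1) scale the metacarpal difference of comp1195_c0 exceeded that of 99.0% of kept components, that of comp3354_c0 98.5% and that of comp10444_c0 96.8%. For metatarsals the shares were 98.8%, 98.2% and 97.2%. The difference of comp10191_c0 exceeded 73.2% in metacarpals and 64.1% in metatarsals. Since the fetal levels were known to the choice, nothing is read from these shares. The median component lay at -0.19 in metacarpals and -0.24 in metatarsals, and at -0.38 and -0.35 when libraries were centred on their medians, so the differences are to be read against these shifts.

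A rise of over 4-fold in both limbs was met by 3 of the 4 components and by 5.84% of all kept components. Both fetal libraries lay above all 12 embryonic ones for the same 3 components, and for 20.7% of all. For comp1195_c0 the metacarpals stood 11.1-fold and the metatarsals 25.4-fold above the highest embryonic score, 386 in the anterior hindlimb bud. The hindlimb excess in all pairs and the 4-fold fetal rise occurred together in 40 kept components, or 0.196%. The limb pairs and the fetal levels were known when the components were chosen, so nothing is read from these counts. The fetal pieces are parts of a skeleton and the earlier ones whole digits, so age and dissection cannot be told apart.

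**Figure D4:**
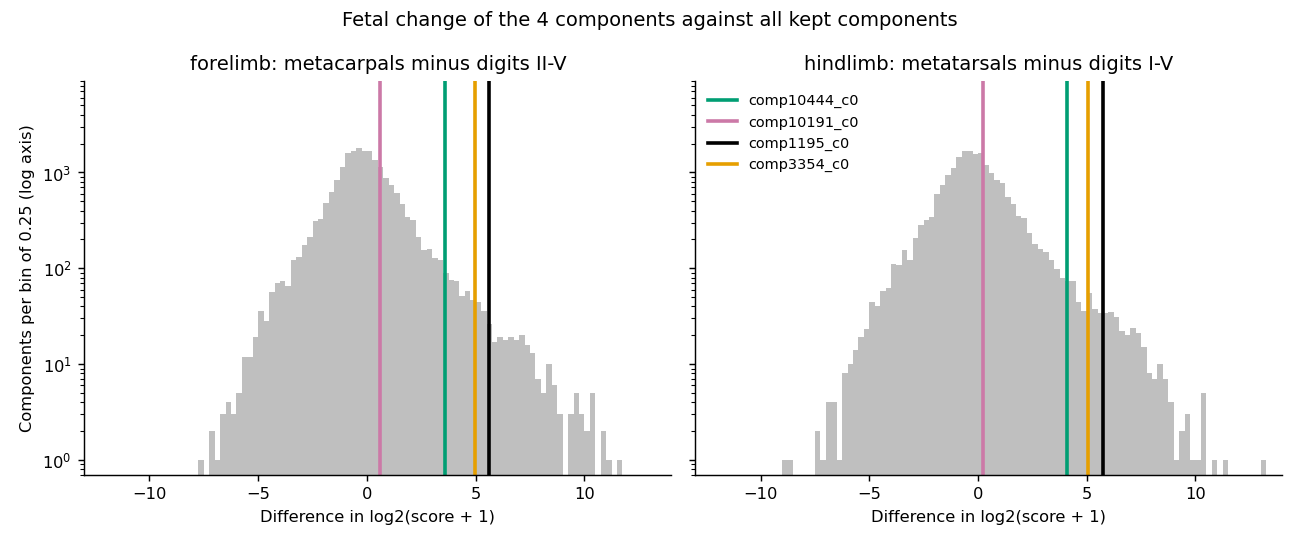
Number of kept components (vertical log axis) by the fetal minus digit difference in log2(score + 1), in forelimb (left) and hindlimb (right); coloured lines mark the 4 components. The lines of comp10444_c0, comp3354_c0 and comp1195_c0 lie in the right tail, at 3.60 to 5.61 in forelimb and 4.08 to 5.76 in hindlimb, and that of comp10191_c0 near the middle.

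Along the axes of the S14 bud, which the choice did not use, the main limma fits called no component at all, the 4 included. Anterior was above posterior in both limbs for comp1195_c0, with ratios of 1.39 (0.801 to 2.41) in forelimb and 1.37 (1.12 to 1.67) in hindlimb. Component comp10191_c0 had 1.19 (0.331 to 4.14) and 1.84 (1.16 to 2.95), and comp3354_c0 1.09 (0.617 to 1.89) and 1.36 (1.11 to 1.66). In comp10444_c0 the ratios were 1.53 (1.03 to 2.27) and 0.952 (0.745 to 1.22), on opposite sides of 1. On the log2(score + 1) scale, the anterior minus posterior difference in hindlimb exceeded that of 94.5% of kept components for comp10191_c0, 87.6% for comp1195_c0 and 87.1% for comp3354_c0. For comp10444_c0 that share was 41.5%. In forelimb the shares were 88.2% for comp10444_c0, 84.0% for comp1195_c0, 68.8% for comp10191_c0 and 59.7% for comp3354_c0.

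In limma with limb as block, the posterior minus anterior log2 difference was -0.27 for comp10444_c0 (SE 0.24, adjusted p = 0.76) and -0.54 for comp10191_c0 (SE 0.36, adjusted p = 0.72). It was -0.46 for comp1195_c0 (SE 0.14, adjusted p = 0.71) and -0.29 for comp3354_c0 (SE 0.17, adjusted p = 0.71). This fit of 4 libraries called 0 of 20429 components (0.0%), and 1078 had an unadjusted p under 0.05. Its smallest limma adjusted p over all components was 0.708, so the lack of a call says little about the 4. With limma voom on recovered reads 273 were called, none of the 4 among them. The middle minus outer difference was 0.29 for comp10191_c0 (SE 0.34, limma adjusted p = 0.93) and between -0.10 and 0.06 for the other 3. That fit also called 0 components (0.0%), with 1091 at an unadjusted p under 0.05, and limma voom called 2.

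Components comp1195_c0 and comp3354_c0 followed each other more closely over the embryonic libraries than any other pair of the 4. Pearson's r of log2(score + 1) was 0.983 and Spearman's rho 1 over the 12 embryonic libraries, which fall into limb and stage groups, so r describes shared groups as well. Within S14 the r of this pair was 0.996 and within S15-17 0.971 (n = 6 libraries each). The choice set hindlimb above forelimb in every matched pair of parts for all 4, which favours a high r between them, above all within S14. Component comp10444_c0 had an r of 0.958 with comp1195_c0 and 0.940 with comp3354_c0 at S14, and 0.902 and 0.971 at S15-17. The r of comp10191_c0 with comp1195_c0 was 0.986 at S14 and 0.567 at S15-17, and with comp3354_c0 0.985 and 0.703.

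The ratio of comp1195_c0 to comp3354_c0 within a library, which depth does not affect, is compared here between libraries only, since its absolute value depends on the unknown lengths. Reads of the 2 components numbered 237 and 235 in the anterior hindlimb bud, a ratio of 1.01 (0.838 to 1.21). They were 244 and 246 in foot interdigital tissue, a ratio of 0.992 (0.828 to 1.19). The 12 embryonic ratios ran from 0.765 (0.342 to 1.67) in the wing web to 1.54 (1.01 to 2.37) in digit I. Metacarpals had 3335 and 1919 reads, a ratio of 1.74 (1.64 to 1.84), and metatarsals 6097 and 3967, a ratio of 1.54 (1.48 to 1.60). Within the hindlimb, the metatarsal interval lay above those of all embryonic libraries. Within the forelimb, the metacarpal interval lay above those of the posterior bud and interdigital tissue I-II, and overlapped those of the anterior and middle bud, digit I, digits II-V and the wing web.

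**Figure D5:**
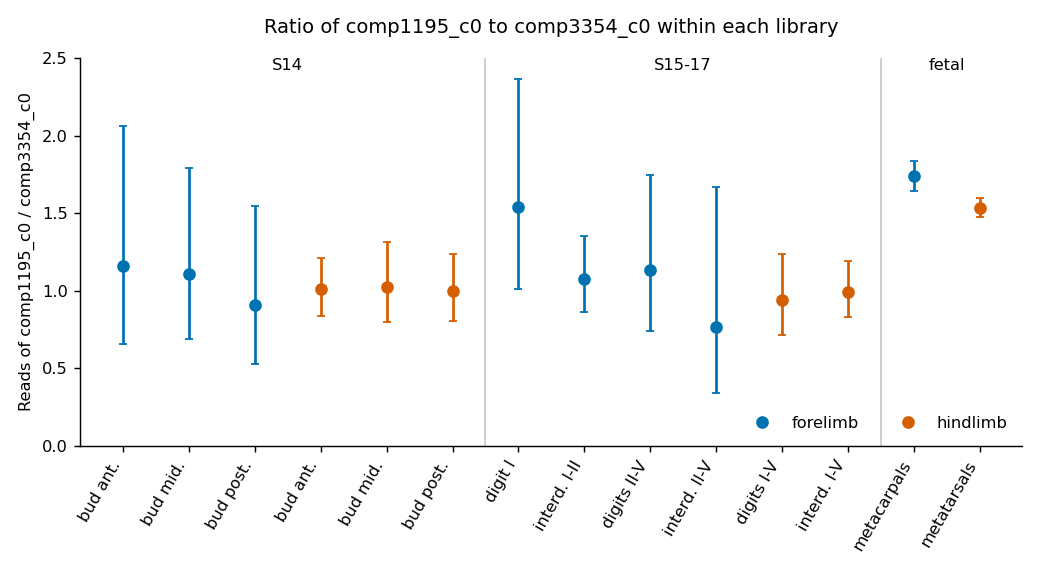
Ratio of the reads of comp1195_c0 to those of comp3354_c0 within each of the 14 libraries, with exact 95% intervals; blue is forelimb and orange hindlimb. Embryonic ratios run from 0.765 to 1.54, with wide intervals in most forelimb libraries, and the fetal ratios are 1.74 and 1.54 with narrow intervals.

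By Pearson's r of log2(score + 1) over the 14 libraries, the component outside the 4 most like comp1195_c0 was comp1030_c0, at 0.963, which was also the one most like comp3354_c0, at 0.970. Component comp1030_c0 scored 4, 7 and 14 in forelimb bud, 81, 33 and 48 in hindlimb bud, and 19, 64, 23, 5, 34 and 48 from digit I to foot interdigital tissue in the order used above. In metacarpals it had 376 and in metatarsals 1171. Its lowest S15-17 score was in the wing web too, which its choice by likeness to components low there favours. The fetal libraries carry much of these r: over the 12 embryonic ones they were 0.889 and 0.907.

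Outside the 4, the component most like comp10444_c0 was comp16732_c0 (r = 0.958 over 14 libraries, 0.704 over the 12 embryonic ones), which scored 155 in metacarpals and 375 in metatarsals and 7 to 30 before. For comp10191_c0 it was comp30336_c0 (0.956 and 0.965), a sparse component at 0 in all 3 forelimb buds and at 34 in foot interdigital tissue, 32 in metacarpals and 23 in metatarsals. These r were picked as the highest among 20429 components over libraries that share their groups, and describe likeness of pattern alone.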

How the data were processed

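The authors deposited 1 table of scores, described in its title as normalized counts, for 64618 components in 14 libraries. Per the submitters' processing notes CASAVA 1.8, RSEM and edgeR were used, with no role or order given. Per the labels' protocols, DNase-treated total RNA went into TruSeq libraries. The assembly and the scaling factors are not given in the sources used here. Scores sum to 9191852 to 11045040 per library.

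The step behind the scores was fitted on scores up to 2000, and 99.981% to 100% of all nonzero scores then equalled a whole number of steps after rounding. Ratios and intervals come from the recovered reads (exact Poisson for a score, exact binomial for a ratio).

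For tests, log2(score + 1) values entered limma (version 3.58.1, R version 4.3.3), which fitted a trend of variance on mean, after keeping 20429 components (98.95% of all scores), with Benjamini-Hochberg adjustment, two-sided. With no repeat libraries, parts of a stage or both limbs stand as samples, so p-values of the stage step measure the spread between parts. Those of anterior against posterior measure in part how far that contrast differs between the limbs. For middle against outer bud, both kinds of spread enter. In every fit limma also draws the variance of each component toward the fitted trend, most where few libraries are used. The anterior minus posterior difference of comp1195_c0 was 0.459 in forelimb and 0.452 in hindlimb, yet its SE was 0.144. The anterior against posterior p-values thus rest in large part on the spread shared by all components. The log2 scale understates the change of low components. Other steps ran in Python 3.11.15 (scipy 1.17.1, numpy 2.4.6, matplotlib 3.10.9, pandas 2.3.3).

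The 4 components, the contrasts and the alternatives were chosen with earlier results of these data known. Named besides the 4 is, for each, the kept component with the highest r over the 14 libraries. Alternatives were scaling to the upper quartile, centring on library medians, limma voom on recovered reads, robust shrinkage, no limb term, a pseudocount of 0.25 or 5, no filter, and leaving out each library or pair. The sign pattern of digits and interdigital tissue, the joint count with the fetal rise, and the counts of libraries that do not overlap were added after seeing the data.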

Additional observations from a re-analysis of the deposited data

How the results depend on the processing

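The mean hindlimb excess of the 4 components stayed positive under other pseudocounts and scalings and without any 1 pair. The choice required every pair difference to be positive, so a pseudocount or a dropped pair could not reverse the mean. Nothing is read from its direction there. Without 1 pair the mean log2 difference ran from 1.17 to 1.44 (comp10444_c0), 1.73 to 2.11 (comp10191_c0), 1.85 to 2.42 (comp1195_c0) and 1.97 to 2.42 (comp3354_c0). The stage call of comp10191_c0 held in all 20 alternative fits, at 2.04 to 2.27 without 1 library, and the number of components called at that step ran from 6961 to 7888 without 1 library. Uncalled differences changed sign in some fits. For the stage step without a limb term they were -0.16 (comp1195_c0) and -0.18 (comp3354_c0), and without 1 library they ran from -0.13 to 0.50 and from -0.13 to 0.41. For middle against outer bud, comp3354_c0 gave -0.14 with limma voom, -0.025 with libraries centred on medians, -0.022 when scaled to the upper quartile and -0.0071 at a pseudocount of 5, and comp1195_c0 gave -0.080 with limma voom. Without 1 library these ran from -0.30 to 0.30 (comp3354_c0), -0.27 to 0.39 (comp1195_c0) and -0.28 to 0.092 (comp10444_c0). Anterior against posterior was called for 273 components with limma voom against 0, and middle against outer for 230 with no filter and 2 each with robust shrinkage and limma voom against 0. The web count of 610 was 339 with a pseudocount of 5. With no filter, which adds many low components, counts were 2462 for the web, 3485 against 1194 for the fetal rise, 5046 against 1996 for the sign pattern of digits and interdigital tissue, 126 against 78 for embryonic limbs that do not overlap, and 9804 against 4238 for fetal libraries above all others. The cause of the other changes was not tested. By Spearman's rho other components came first in likeness for all 4, and for comp10191_c0 also at a mean score of at least 50. The anterior to posterior fit was not run without single libraries, since it then keeps no residual degrees of freedom. Forelimb bud values of comp10191_c0 rest on 6 to 9 reads and web values of comp1195_c0 and comp3354_c0 on 13 and 17, which limits their ratios.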
